A study of Mus musculus with 12 samples.

Results

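The 8 genes described here are Cacnb2, Thrb, Tshz2, Angpt1, Mctp1, Hmga2, Mpp4 and Nrgn, out of 33696 genes listed in the deposited matrices. They were chosen for lower levels in thymic libraries labelled Gfi1 KO than in those labelled WT. Cacnb2, Thrb and Tshz2 were chosen on the difference in CD4-negative, CD8-negative thymocytes of stages DN1 to DN3. Angpt1, Mctp1, Hmga2, Mpp4 and Nrgn were chosen on the difference in thymic γδ T cells. Each of these differences is therefore given as a description without a test, and tests are given only in compartments that did not choose the gene. All 8 genes were counted in all 12 libraries and passed the filter on low counts. Being lost in the thymus did not hold for every gene in both thymic compartments: in DN1-DN3 cells the difference of Nrgn missed the threshold and Hmga2 was not lower in KO-labelled libraries, and in thymic γδ T cells the difference of Thrb missed the threshold.

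Cells were sorted from adult C57BL6/J mice that were either wild type (WT) or lacked the transcription factor GFI1 (Gfi1 KO), without any treatment. 3 sorts were made, namely γδ T cells of the spleen, γδ T cells of the thymus and thymic DN1-DN3 cells, and per the design text of the series the γδ and DN1-DN3 thymocytes came from the same mice. WT and KO cells carried different hashtag antibodies and were pooled for one 10x Genomics 3′ droplet run, with 2 pools in each of the 3 compartments and thus 2 libraries for each genotype and compartment. B cells, myeloid cells and NK cells had been depleted before the sort, and CD8-bearing cells partly so in the thymus only. Nothing in the sources says whether the 2 libraries of a group held cells of separate mice, so the p-values measure only the spread between these libraries. The labels name the allele only as KO and give no exon or part that was deleted.

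GFI1 is a zinc finger repressor that acts in blood stem cells, lymphocyte precursors and mature lymphocytes. DN thymocytes pass from Kit-bearing progenitors to cells that express Ptcra, the invariant partner of the T cell receptor β chain, and γδ T cells branch off during these stages and carry CD24 while they are immature. None of the 8 genes belongs to the core T cell programme. Angpt1 encodes angiopoietin 1, a secreted ligand of the endothelial receptor TIE2. Cacnb2 encodes a cytoplasmic β subunit of voltage-gated calcium channels, Nrgn encodes neurogranin, a small protein that binds calmodulin, and Mctp1 encodes a membrane protein with calcium-binding C2 domains. Thrb encodes a nuclear receptor for thyroid hormone, Tshz2 a zinc finger protein of the teashirt family, and Hmga2 an AT-hook chromatin protein of stem cells and fetal tissue. Mpp4 encodes a membrane-associated scaffold protein best known from the retina.

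GFI1 binds DNA through a core that contains AATC, and the stretches upstream of the 8 genes were therefore searched for the letters AATCAC on both strands. RefSeq promoter windows on GRCm38.p6, each reaching from 250 bases before to 50 bases after a transcript start, were at hand for 7 of the 8 genes. Of all 32851 such windows, 10.4% hold AATCAC and 73.1% hold the shorter AATC on either strand over their full length. For the 7 genes only the bases before each start were searched, so their matches cannot be set against these shares. The bases upstream of the start held AATCAC once in the window of Mctp1, 231 bases before the start and on the minus strand, and once in the window of the second start of Thrb, 196 bases before it and on the plus strand. The 60 bases around each match are shown because they are the only matches among these genes, with the match in capitals and both windows read on the plus strand. The Mctp1 stretch is at chr13:76579347-76579406 and the Thrb stretch at chr14:17981421-17981480.
Mctp1: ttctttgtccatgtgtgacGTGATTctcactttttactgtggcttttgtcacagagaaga
Thrb: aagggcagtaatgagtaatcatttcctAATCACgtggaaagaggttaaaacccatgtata
The upstream bases listed for Cacnb2, Tshz2, Hmga2, Mpp4, Nrgn and the first start of Thrb hold no AATCAC. These matches describe letters in the windows searched and were not measured as binding sites.

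Gfi1 itself was not lower in KO-labelled libraries. Its level was 44.7 and 40.6 CPM (UMIs of the gene relative to all UMIs of its library) in WT-labelled DN1-DN3 libraries and 70.6 and 56.6 CPM in KO-labelled libraries. It was 16.5 and 17.6 against 28.9 and 19.2 CPM in thymic γδ T cells, and 11.8 and 18.0 against 18.1 and 18.1 CPM in the spleen. A 3′ tag can lie outside the deleted part of a gene, so the label and not the Gfi1 count defines the groups below. After the filter on cells the libraries held 6795 to 11679 cells and 42091895 to 71663962 UMIs, with 4947 to 6853 UMIs in the median cell, and no barcode was shared by the WT and KO libraries of a pool. The sorts bore their markers, since the T cell receptor δ constant gene Trdc was at 1233 to 2051 CPM in the γδ libraries and at 126 to 199 CPM in the DN1-DN3 libraries, and Ptcra at 95.4 to 168 CPM in DN1-DN3 libraries and at most 5.07 CPM elsewhere. The Y-linked gene Ddx3y was at 28.0 and 26.0 CPM in WT-labelled DN1-DN3 libraries and at 11.6 and 14.2 CPM in KO-labelled libraries, and its part in the results was not tested.

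Among thymic γδ T cells, the 5 genes chosen there stood at 6.06% to 10.9% of the WT mean in KO-labelled libraries. Angpt1 was at 117 and 112 CPM in WT-labelled libraries and at 8.81 and 5.05 CPM in KO-labelled libraries. Nrgn was at 262 and 225 CPM against 32.9 and 20.03 CPM. Mctp1 was at 63.4 and 55.9 CPM against 5.05 and 2.82 CPM. The WT and KO ranges of the RNAs for these calcium-linked and secreted products lay far apart, and all 4 KO values of Mctp1 and Angpt1 were below 10 CPM. Hmga2 was at 74.5 and 61.3 CPM against 6.99 and 4.76 CPM, and the scaffold gene Mpp4 at 56.8 and 49.6 CPM against 6.14 and 3.88 CPM. On the log2 scale the fitted differences, which chose these genes and carry no test, were -3.93 ± 0.33 (SE) for Angpt1, -3.81 ± 0.25 for Mctp1, -3.41 ± 0.27 for Hmga2, -3.29 ± 0.17 for Mpp4 and -3.09 ± 0.21 for Nrgn, with 2 libraries in each group. None of the 5 was at 0 in a library labelled KO. WT and KO cells of a pool shared a droplet run and free RNA was not measured, so the part of WT RNA in these KO levels is not known.

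In DN1-DN3 cells, the 3 genes chosen there stood at 9.98% (Cacnb2), 13.3% (Thrb) and 21.3% (Tshz2) of the WT mean. Cacnb2 was at 54.4 and 38.9 CPM in WT-labelled libraries and at 4.48 and 4.83 CPM in KO-labelled libraries. Thrb was at 45.3 and 29.8 CPM against 6.54 and 3.48 CPM. Tshz2 was at 121 and 123 CPM against 29.0 and 23.1 CPM. The log2 differences, again a description, were -3.31 ± 0.26 for Cacnb2, -2.92 ± 0.39 for Thrb and -2.24 ± 0.17 for Tshz2 (SE, n = 2).

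**Figure D1:**
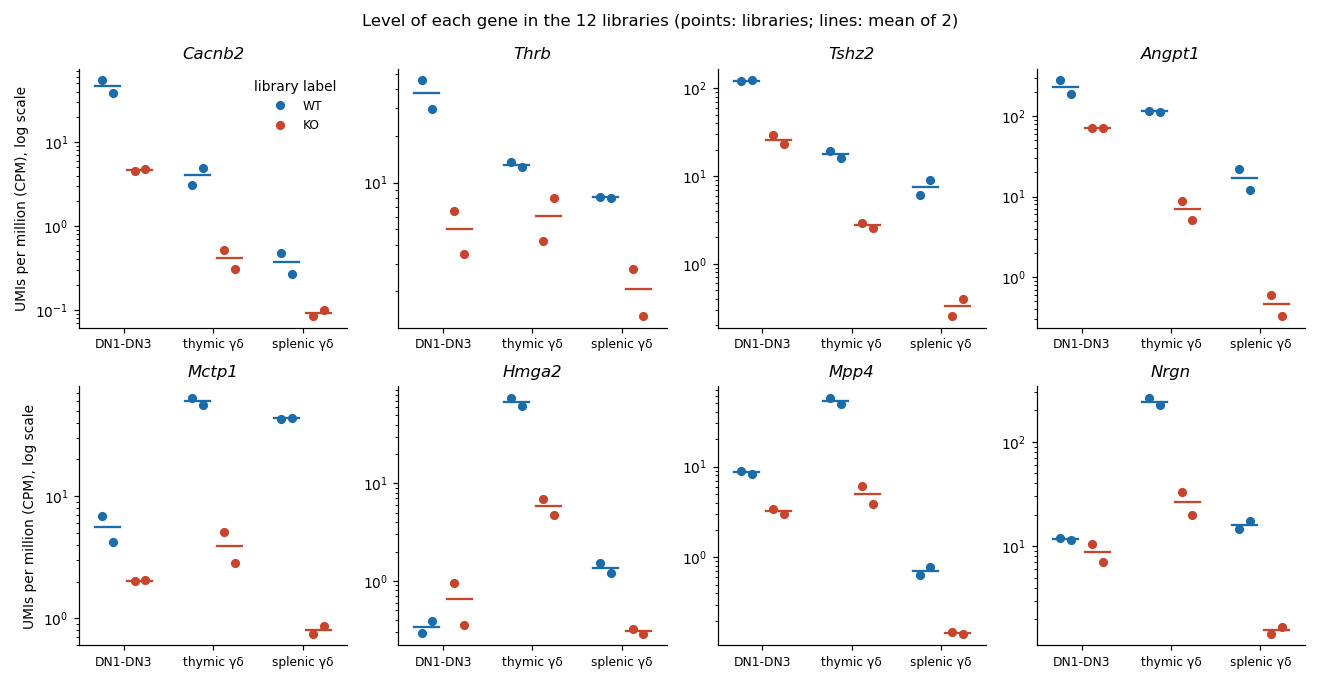
Level of each of the 8 genes in CPM (log scale) in DN1-DN3 cells, thymic γδ T cells and splenic γδ T cells, with libraries labelled WT in blue and KO in red, 1 point for each library and a line at the mean of 2. In 23 of the 24 pairs of gene and compartment the ranges of the 2 labels do not overlap. The exception is Hmga2 in DN1-DN3 cells. The 24 pairs include the differences that chose the genes, and no such count over all genes was made. The highest group of a gene is WT DN1-DN3 for Cacnb2, Thrb, Tshz2 and Angpt1 and WT thymic γδ for Mctp1, Hmga2, Mpp4 and Nrgn.

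The 8 genes fell into different patterns over the compartments of the WT libraries. Cacnb2 fell stepwise from a mean of 46.7 CPM in DN1-DN3 cells over 4.02 CPM in thymic γδ T cells to 0.372 CPM in splenic γδ T cells, and no 2 of these ranges overlapped. Tshz2 and Thrb followed the same order, with means of 122, 17.7 and 7.49 CPM for Tshz2 and 37.6, 13.0 and 8.04 CPM for Thrb. Angpt1, although chosen in γδ T cells, was higher in DN1-DN3 cells (232 CPM) than in thymic (114 CPM) and splenic (17.1 CPM) γδ T cells. The other 4 genes were highest in thymic γδ T cells. Mctp1 stayed near that level in the spleen, with 59.7 CPM in the thymus and 43.4 CPM in the spleen, and was at 5.55 CPM in DN1-DN3 cells. Hmga2 was at 67.9 CPM in thymic γδ T cells, 1.37 CPM in the spleen and 0.338 CPM in DN1-DN3 cells. Mpp4 was at 53.2, 0.707 and 8.65 CPM and Nrgn at 243, 16.1 and 11.7 CPM in the same order. Neighbours whose library ranges overlapped were the KO DN1-DN3 and WT thymic γδ values of Cacnb2, its KO thymic γδ and WT splenic values, the KO thymic γδ and KO DN1-DN3 values of Thrb, the WT DN1-DN3 and KO thymic γδ values of Mctp1, and the values of Hmga2 at the low end.

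The DN1-DN3 difference was tested for the 5 genes chosen in γδ T cells, of which 3 fell, where 7.73% of the 14911 genes tested were called lower by edgeR's quasi-likelihood test. Angpt1 was at 278 and 186 CPM in WT-labelled libraries and at 70.7 and 70.6 CPM in KO-labelled libraries, which gave -1.70 ± 0.29 on the log2 scale (SE, edgeR adjusted p = 0.00282). Mpp4 was at 9.01 and 8.28 CPM against 3.41 and 3.04 CPM (log2 -1.43 ± 0.17, edgeR adjusted p = 0.000357). Mctp1 was at 6.89 and 4.21 CPM against 2.01 and 2.04 CPM (log2 -1.44 ± 0.25, edgeR adjusted p = 0.00306). The RNAs for the secreted ligand, the scaffold and the C2-domain protein thus were lower in both KO libraries than in both WT libraries. Nrgn was at 12.04 and 11.4 CPM against 10.4 and 7.07 CPM, without overlap but short of the threshold (log2 -0.43 ± 0.21, edgeR adjusted p = 0.168). Hmga2 rested on 18 and 24 UMIs against 44 and 20 UMIs, or 0.291 and 0.385 CPM against 0.943 and 0.355 CPM, and the groups overlapped (log2 0.89 ± 0.42, edgeR adjusted p = 0.159). The call of Angpt1 rested on KO replicate 1, without which its log2 difference was -1.66 with an edgeR adjusted p of 0.0536. Markers of other cells moved beside these genes: the 9 measured γδT17 genes summed to 115 and 119 CPM in the lowest and highest DN1-DN3 library labelled WT and to 778 and 1474 CPM in KO-labelled libraries, all 9 were called higher, and none of the 9 was at 0 in all 4 libraries. The 6 NK and innate lymphoid genes summed to 125 to 139 CPM against 219 to 278 CPM, 5 of them were called higher, and the 5 cycling genes summed to 1118 to 1147 CPM against 691 to 834 CPM with 1 called lower. The 10 progenitor genes of DN1 and DN2 summed to 112 to 162 CPM against 90.1 to 102 CPM, with 2 called lower. The 11 immature γδ genes, a list that holds Gfi1 itself, Tcf7 and Lef1, summed to 3223 to 3502 CPM against 2170 to 2324 CPM. Of them 2 were called lower and 1 was called higher. Of the 5 B cell genes tested, 2 were called higher. Other lists moved little: the 12 DN3 and pre-TCR genes summed to 4827 to 5265 CPM against 4657 to 4928 CPM, with 1 called higher and 1 lower. The 6 αβ T cell genes summed to 2082 to 2160 CPM against 1989 to 2029 CPM, with 1 called higher. No tested gene of the myeloid and thymic stroma lists was called. Over all genes tested in DN1-DN3 cells, 15.2% were called higher. The part of these lists in the differences was not tested. In the sums over a whole library, fewer cells of a type and less RNA per cell cannot be told apart.

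The thymic γδ difference was tested for the 3 genes chosen in DN1-DN3 cells, of which 2 fell, where 23.7% of the 14911 genes were called lower. Cacnb2 was at 3.05 and 4.98 CPM in WT-labelled libraries and at 0.519 and 0.309 CPM in KO-labelled libraries (log2 -3.17 ± 0.34, edgeR adjusted p = 4.70e-05). Tshz2 was at 19.4 and 16.0 CPM against 2.95 and 2.56 CPM (log2 -2.56 ± 0.19, edgeR adjusted p = 8.87e-06). Thrb was at 13.5 and 12.5 CPM against 4.20 and 7.91 CPM. Both KO libraries were below both WT libraries for the RNA of this thyroid hormone receptor, but its log2 difference of -0.96 ± 0.38 missed the threshold (edgeR adjusted p = 0.0582). With the pool as a replicate block it passed (log2 -1.02, edgeR adjusted p = 0.0301), as it did without KO replicate 2 (log2 -1.54, edgeR adjusted p = 0.0264), with only the 4 libraries of this compartment (edgeR adjusted p = 0.0401) and under DESeq2 (adjusted p = 0.0232), and it did not pass under the other 7 alternatives. The γδT17 genes summed to 783 to 910 CPM in the WT libraries and to 6271 to 7502 CPM in the KO libraries of this compartment, and the 11 immature γδ genes to 5056 to 5352 CPM against 1135 to 1541 CPM. The 5 cycling genes summed to 1020 to 1245 CPM against 232 to 284 CPM with all 5 called lower, and the 6 αβ T cell genes to 3175 to 3262 CPM against 1303 to 1531 CPM with 4 called lower. The part of these 4 lists in the differences was not tested.

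No gene was chosen in the spleen, and there all 8 genes fell, where 26.1% of the 14911 genes were called lower. The largest fall of the 8 was that of Mctp1, from 42.8 and 44.0 CPM in WT-labelled libraries to 0.748 and 0.863 CPM in KO-labelled libraries (log2 -5.64 ± 0.29, edgeR adjusted p = 3.40e-07). Angpt1 went from 22.05 and 12.1 CPM to 0.598 and 0.331 CPM (log2 -5.16 ± 0.43, edgeR adjusted p = 6.41e-06). Tshz2 went from 6.06 and 8.92 CPM to 0.256 and 0.403 CPM (log2 -4.37 ± 0.26, edgeR adjusted p = 7.64e-07). The KO means were 1.86% (Mctp1), 2.72% (Angpt1) and 4.40% (Tshz2) of the WT means. WT and KO cells shared a droplet run and free RNA was not measured, so levels this low cannot be told apart from RNA of the WT cells in the run. Nrgn went from 14.5 and 17.6 CPM to 1.45 and 1.68 CPM (log2 -3.26 ± 0.25, edgeR adjusted p = 3.62e-06). Thrb went from 8.13 and 7.96 CPM to 2.78 and 1.40 CPM (log2 -1.88 ± 0.41, edgeR adjusted p = 0.00332). The other 3 genes were scarce in the spleen. Mpp4 rested on 27 and 46 UMIs in WT-labelled libraries and 7 and 10 UMIs in KO-labelled libraries (log2 -2.18 ± 0.31, edgeR adjusted p = 0.000214). Hmga2 rested on 64 and 72 UMIs against 15 and 20 UMIs (log2 -2.07 ± 0.39, edgeR adjusted p = 0.00146). Cacnb2 rested on 20 and 16 UMIs against 4 and 7 UMIs (log2 -1.81 ± 0.56, edgeR adjusted p = 0.0191), and its call was lost without KO replicate 1 (edgeR adjusted p = 0.0672), without KO replicate 2 (0.0856) or without WT replicate 1 (0.100). Cells with a Trgv6 UMI made up 5.15% and 4.73% of the splenic libraries labelled WT and 63.2% and 64.5% of those labelled KO, and the γδT17 genes summed to 763 to 786 CPM against 8355 to 8890 CPM. The 11 immature γδ genes summed to 3042 to 3204 CPM against 354 to 381 CPM there and the 6 αβ T cell genes to 1745 to 1806 CPM against 993 to 1031 CPM, and the part of these shifts in the falls was not tested. In the spleen the immature γδ list does not mark immature cells alone, since the study links its members Tcf7 and Lef1 to adaptive-like γδ T cells.

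**Figure D2:**
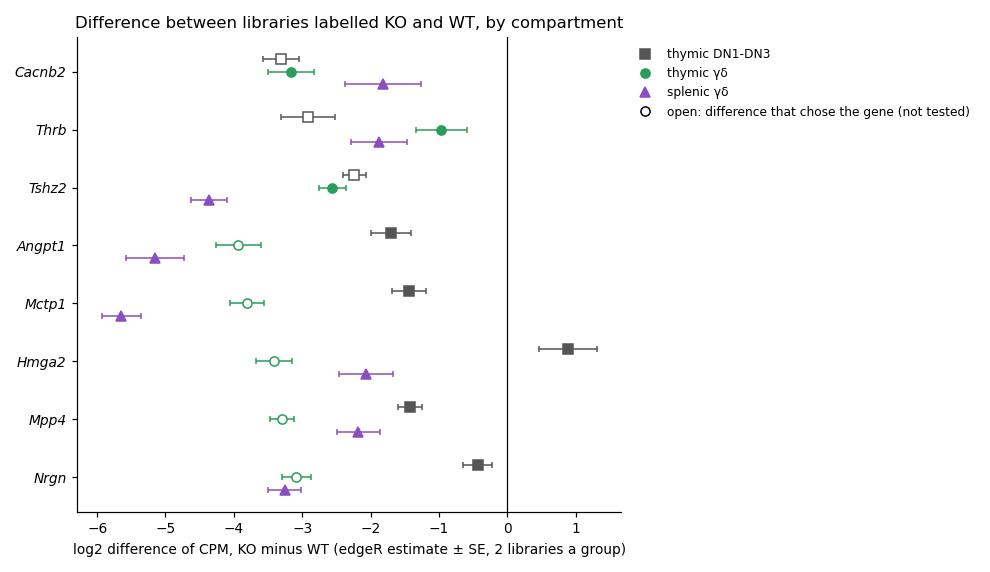
Log2 difference of each gene between libraries labelled KO and WT (edgeR estimate with an SE derived from its F statistic, 2 libraries a group) in DN1-DN3 cells (squares), thymic γδ T cells (circles) and splenic γδ T cells (triangles), with open symbols for the difference that chose the gene. All values lie below 0 except that of Hmga2 in DN1-DN3 cells at 0.89, and Mctp1 in the spleen lies lowest at -5.64.

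The spleen and thymus also differed in sex-linked genes: the X-linked Xist was at 739 to 1600 CPM in the thymic libraries and at most 0.374 CPM in the splenic ones, and the Y-linked Ddx3y at 11.6 to 35.8 CPM against 82.2 to 100.3 CPM. Compartment and this difference cannot be told apart in what follows. An interaction term tested whether a gene differed by the same amount in splenic γδ T cells and in the thymic compartment that had not chosen it. Of the 5 genes chosen in γδ T cells, 4 had a difference called more negative in splenic γδ T cells than in DN1-DN3 cells, as did 20.9% of all genes tested. Of these 4, Angpt1 and Mctp1 were also called lower in DN1-DN3 cells, Nrgn was not, and Hmga2 had a positive difference there that was not called. The difference of the log2 differences was -4.20 ± 0.38 for Mctp1 (edgeR adjusted p = 2.51e-05) and -3.45 ± 0.53 for Angpt1 (edgeR adjusted p = 0.000669). It was -2.82 ± 0.32 for Nrgn (edgeR adjusted p = 0.00011) and -2.95 ± 0.58 for Hmga2 (edgeR adjusted p = 0.00297). Mpp4 missed the threshold at -0.76 ± 0.37 (edgeR adjusted p = 0.128). Between splenic and thymic γδ T cells, Tshz2 had a more negative difference in the spleen (-1.80 ± 0.34, edgeR adjusted p = 0.00394), where 15.9% of all genes tested were called more negative. Thrb (-0.91 ± 0.55, edgeR adjusted p = 0.246) and Cacnb2 (1.35 ± 0.74, edgeR adjusted p = 0.196) gave no call.

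The DN1-DN3 sums were also restricted to cells with at least 2 Ptcra UMIs. These cells numbered 1607 and 2026 in WT-labelled libraries and 1048 and 2268 in KO-labelled libraries. Angpt1 was at 202 and 159 CPM against 115 and 87.7 CPM in them, which gave log2 -0.83 ± 0.12 (edgeR adjusted p = 0.000316). Mpp4 was at 5.67 and 4.89 CPM against 2.81 and 2.06 CPM (log2 -1.15 ± 0.24, edgeR adjusted p = 0.00418). Mctp1 rested on 31 and 21 UMIs against 6 and 6 UMIs (log2 -1.76 ± 0.49, edgeR adjusted p = 0.0244), and its call was lost without KO replicate 2 (edgeR adjusted p = 0.18) or WT replicate 1 (0.22) and under DESeq2 (adjusted p = 0.183). Nrgn was at 3.95 and 3.23 CPM against 2.70 and 2.46 CPM (log2 -0.47 ± 0.25, edgeR adjusted p = 0.256), and Hmga2, with 2 and 0 UMIs against 1 and 3 UMIs, was too scarce to test. Of the 4 genes tested 3 fell, where 6.55% of the 12328 genes tested in these cells were called lower. The genes chosen in DN1-DN3 cells, which carry no test here, were at 43.1 and 33.3 against 3.54 and 3.86 CPM for Cacnb2, 40.8 and 23.0 against 5.41 and 2.56 CPM for Thrb, and 148 and 157 against 52.3 and 33.3 CPM for Tshz2. The cells so selected still differed in markers of other cells. Maf was at 7.73 and 5.52 CPM against 71.5 and 54.6 CPM, Il2rb at 2.54 and 0.989 against 8.95 and 7.12 CPM, Trac at 5.90 and 4.68 against 17.6 and 7.62 CPM, and Cd24a at 167 and 169 against 126 and 121 CPM. The B cell gene Cd79a had 5 and 3 UMIs against 6 and 26 UMIs, and the part of these shifts in the differences was not tested. When the cells were further split by Mki67, a gene of cycling cells, Angpt1 was called lower both without an Mki67 UMI (log2 -1.06 ± 0.14, edgeR adjusted p = 0.000251, where 3.78% of genes were called lower) and with one (log2 -0.76 ± 0.14, edgeR adjusted p = 0.000432, where 3.19% were). Mpp4 was called with an Mki67 UMI (log2 -1.03 ± 0.28, edgeR adjusted p = 0.00889) but not without one (log2 -0.88 ± 0.39, edgeR adjusted p = 0.211). Mctp1 was called without one (log2 -1.84 ± 0.53, edgeR adjusted p = 0.0428), from 4 and 5 UMIs in KO-labelled libraries, and was too scarce to test with one. Nrgn was called in neither (edgeR adjusted p = 0.398 and 0.944).

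**Figure D3:**
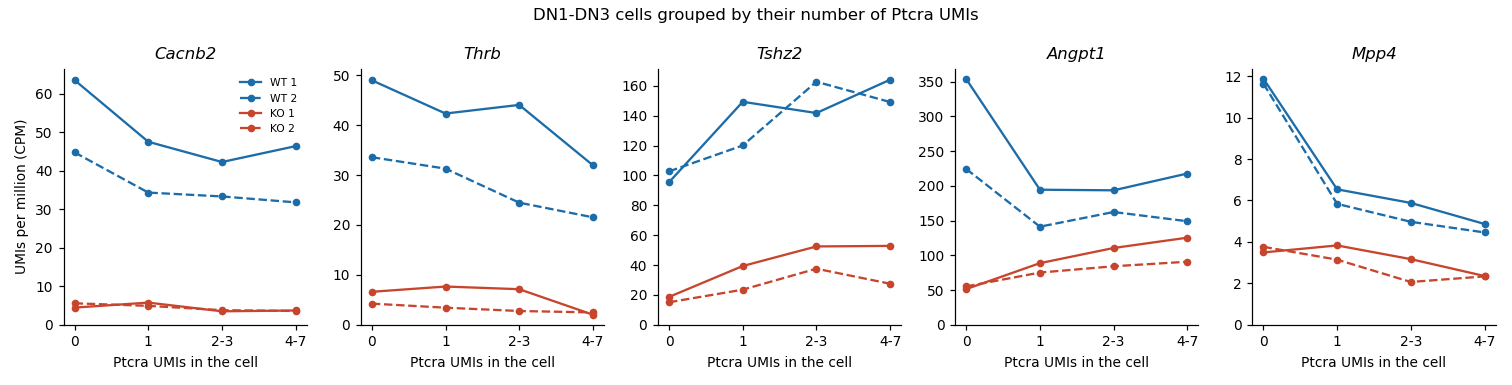
Level in CPM of Cacnb2, Thrb, Tshz2, Angpt1 and Mpp4 in DN1-DN3 cells grouped by their number of Ptcra UMIs (0, 1, 2-3 and 4-7), with 1 line for each library, WT in blue and KO in red, and groups under 20 cells in a library left out. Both KO lines lie below both WT lines in every group shown, and the KO lines of Tshz2 and Angpt1 are higher in the cells with Ptcra than in those without. Cacnb2, Thrb and Tshz2 were chosen in these libraries.

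Other cells of the DN1-DN3 sort gave the same direction for the tested genes. In cells without Ptcra and with a Kit UMI, which numbered 738 and 630 in WT-labelled libraries and 325 and 329 in KO-labelled libraries, 3 of the 4 genes tested were called lower, where 2.65% of 10974 genes were. Angpt1 was at 705 and 434 CPM against 145 and 119 CPM (log2 -2.08 ± 0.19, edgeR adjusted p = 5.40e-07), above its level in the whole sort. Mpp4 was at 13.8 and 17.1 CPM against 6.66 and 2.79 CPM (log2 -1.70 ± 0.31, edgeR adjusted p = 0.000641). Nrgn was at 45.0 and 33.7 CPM against 29.4 and 22.6 CPM (log2 -0.57 ± 0.17, edgeR adjusted p = 0.0339), and Mctp1 missed the threshold (log2 -0.81 ± 0.27, edgeR adjusted p = 0.0877). Cells without Ptcra and with an Il2rb UMI numbered 227 and 237 in WT-labelled libraries and 1743 and 953 in KO-labelled libraries. In them Angpt1 (log2 -2.93 ± 0.43, edgeR adjusted p = 0.0124), Mctp1 (log2 -1.95 ± 0.35, edgeR adjusted p = 0.00482) and Mpp4 (log2 -1.81 ± 0.51, edgeR adjusted p = 0.0394) were lower, where 4.79% of 10596 genes were called lower, and Nrgn was not called (log2 -1.65 ± 0.74, edgeR adjusted p = 0.331). The DN-chosen Cacnb2 was at 103 and 79.5 against 16.8 and 17.7 CPM in the Kit cells and at 25.5 and 15.4 against 1.69 and 2.34 CPM in the Il2rb cells.

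Thymic γδ T cells with at least 2 Cd24a UMIs, a mark of immature cells, numbered 599 and 801 in WT-labelled libraries and 160 and 115 in KO-labelled libraries. Thrb was at 11.8 and 16.8 CPM against 5.87 and 1.62 CPM in these cells (log2 -1.82 ± 0.41, edgeR adjusted p = 0.0213), and Tshz2 at 19.5 and 18.9 CPM against 8.38 and 9.20 CPM (log2 -1.10 ± 0.21, edgeR adjusted p = 0.00939). Cacnb2 was at 5.71 and 10.1 CPM against 3.77 and 2.16 CPM and was not called (log2 -1.36 ± 0.47, edgeR adjusted p = 0.113), but was with the pool as a replicate block (edgeR adjusted p = 0.0168), without the filter on low counts (0.00718) and without WT replicate 1 (0.00259). Thus 2 of the 3 genes tested fell, where 2.97% of 11130 genes were called lower, and neither call held without KO replicate 1 or without KO replicate 2. Thrb had 14 and 3 UMIs in these KO cells. In cells with at least 4 Cd24a UMIs, Tshz2 was at 19.3 and 13.6 CPM against 7.32 and 22.3 CPM, from 5 and 13 UMIs in the KO cells, and the groups overlapped (log2 -0.15, edgeR adjusted p = 0.924). Other markers differed in the cells with at least 2 Cd24a UMIs, where Maf was at 100.2 and 92.9 CPM against 180 and 169 CPM and Trac at 52.0 and 35.9 CPM against 19.7 and 13.5 CPM, and their part was not tested. The genes chosen in γδ T cells were at 144 and 121 against 40.7 and 36.8 CPM for Angpt1, 88.4 and 61.5 against 21.0 and 14.6 CPM for Mpp4, 66.4 and 50.6 against 5.87 and 21.6 CPM for Hmga2, 49.8 and 30.3 against 11.7 and 4.87 CPM for Mctp1 and 273 and 173 against 58.7 and 59.5 CPM for Nrgn. All 5 were lower in both KO libraries than in both WT libraries. These cells are part of the libraries that chose the 5 genes, so this is a description without a test. In the cells without Cd24a, Angpt1 was at 103 and 98.3 against 5.50 and 3.16 CPM, and the KO levels of Angpt1, Mpp4, Mctp1 and Nrgn were lower there in both libraries than in the cells with at least 2 Cd24a UMIs. Hmga2, at 5.99 and 3.91 CPM in the KO cells without Cd24a, was not lower there in KO replicate 1. In KO replicate 2, 34 of the 68 Angpt1 UMIs of the cells with at least 2 Cd24a UMIs came from 2 cells.

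**Figure D4:**
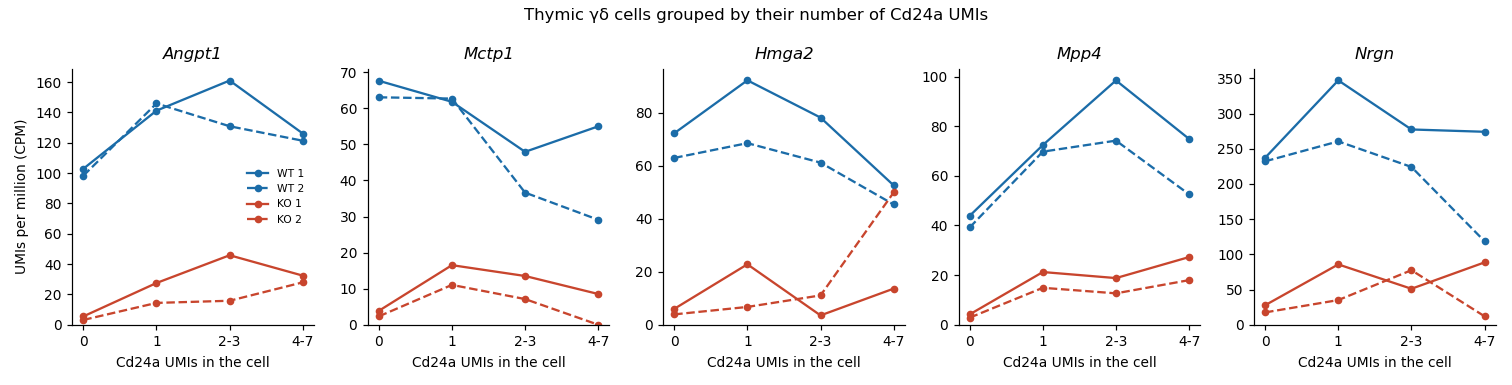
Level in CPM of Angpt1, Mctp1, Hmga2, Mpp4 and Nrgn in thymic γδ T cells grouped by their number of Cd24a UMIs (0, 1, 2-3 and 4-7), with 1 line for each library, WT in blue and KO in red, and groups under 20 cells in a library left out. The KO lines lie below the WT lines at 0, 1 and 2-3 UMIs, and at 4-7 UMIs, where the KO points rest on 35 and 28 cells, one KO value of Hmga2 (49.9 CPM) lies between the WT values.

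The genes were also followed in cells with a Trgv6 UMI, the γ chain variable segment of one γδ subset, whose reads can be shared with similar segments. In the thymus, 154 and 200 such cells in WT-labelled libraries and 3149 and 3930 in KO-labelled libraries were found, and 2 of the 3 genes tested in them fell, where 20.9% of 11831 genes were called lower. Tshz2 was at 22.7 and 11.9 CPM against 0.927 and 0.576 CPM in them (log2 -4.42 ± 0.46, edgeR adjusted p = 9.62e-05), and Cacnb2, from 2 and 9 UMIs against 8 and 3 UMIs, at 1.34 and 4.89 against 0.412 and 0.123 CPM (log2 -3.52 ± 0.86, edgeR adjusted p = 0.0102). Thrb was at 10.0 and 7.60 CPM against 2.57 and 9.05 CPM, the groups overlapping (log2 -0.46 ± 0.80, edgeR adjusted p = 0.687). The γδ-chosen Angpt1 was at 128 and 125 CPM against 2.78 and 1.48 CPM, and Nrgn at 247 and 284 CPM against 11.3 and 9.38 CPM. In the spleen, 5 of the genes could be tested in cells with Trgv6 and all 5 fell, where 12.1% of 11978 genes were called lower. There Mctp1 was at 12.1 and 20.02 CPM against 0.510 and 0.812 CPM (log2 -4.60 ± 0.37, edgeR adjusted p = 4.02e-05) and Tshz2 at 4.77 and 7.31 CPM against 0.255 and 0.312 CPM (log2 -4.41 ± 0.47, edgeR adjusted p = 0.000214). Angpt1 rested on 15 and 26 UMIs against 5 and 19 UMIs from many more cells (log2 -4.43 ± 0.51, edgeR adjusted p = 0.000319). In splenic cells without Trgv6, 7 genes could be tested and all 7 fell, where 27.9% of 12991 genes were called lower, with Mctp1 at 44.9 and 45.6 CPM against 1.23 and 0.978 CPM (log2 -5.33 ± 0.15, edgeR adjusted p = 6.48e-08). Cacnb2, Hmga2 and Mpp4 were too scarce to test in the splenic cells with Trgv6, and Cacnb2 also in those without. Mpp4 had 0 and 0 UMIs against 4 and 4 UMIs in the splenic cells with Trgv6.

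Shares of cells with a UMI were compared after thinning each cell to 3000 UMIs, and they moved with the summed levels. For Angpt1 the share was 39.5% and 33.4% in WT DN1-DN3 cells and 13.8% and 15.3% in KO cells, 16.8% and 16.3% against 1.45% and 0.847% in thymic γδ T cells, and 2.99% and 2.40% against 0.107% and 0.108% in the spleen. For Tshz2 in DN1-DN3 cells it was 24.3% and 24.8% against 5.73% and 5.71%. For Nrgn in thymic γδ T cells it was 18.2% and 18.1% against 4.72% and 2.81%. Hmga2 was found in 7.25% and 6.14% against 1.11% and 0.695% of thymic γδ T cells, and in 0.137% and 0.128% against 0.208% and 0.0796% of DN1-DN3 cells. Both KO libraries lay below both WT libraries in 23 of 24 pairs of gene and compartment, the exception being Hmga2 in DN1-DN3 cells. The 24 pairs include those that chose the genes, and no such count over all genes was made. The shares come from the same UMIs as the levels and are not separate evidence. With 2 libraries against 2 the exact permutation test cannot give a two-sided p below 0.33, so these shares carry no test.

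Relatives and partners of the 8 genes did not share one direction. Their counts stand against 28.6% of all genes tested called higher in the spleen, 26.1% in thymic γδ T cells and 15.2% in DN1-DN3 cells, and against the shares called lower given above. Mctp2, the only relative of Mctp1 listed, fell in the spleen from 106 ± 0.90 to 3.60 ± 0.53 CPM (SD, n = 2, log2 -4.80, edgeR adjusted p = 2.47e-07) and in thymic γδ T cells from 29.99 ± 2.96 to 10.5 ± 2.7 CPM (log2 -1.40, edgeR adjusted p = 0.000283), and gave no call in DN1-DN3 cells. The relatives of Tshz2 moved the other way. Tshz3 rose from 32.1 ± 1.2 to 106 ± 5.6 CPM in the spleen (log2 1.82, edgeR adjusted p = 1.18e-05) and from 14.7 ± 2.7 to 58.3 ± 8.3 CPM in thymic γδ T cells (log2 2.12, edgeR adjusted p = 1.15e-05), and Tshz1 rose in all 3 compartments by 0.62 to 0.76 on the log2 scale. Of the 5 relatives of Mpp4 tested, 4 fell in the spleen and 4 in thymic γδ T cells, with a median log2 difference of -1.08 and -0.71, against 1 in DN1-DN3 cells. Mpp1 went from 54.8 ± 8.6 to 15.3 ± 1.2 CPM (log2 -1.75, edgeR adjusted p = 2.78e-06) and Pals1 from 28.7 ± 0.14 to 9.32 ± 0.72 CPM (log2 -1.53, edgeR adjusted p = 1.01e-06) in the spleen.

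The angiopoietin receptors were near or at 0 in all groups, with means of at most 0.222 CPM for Tek, which encodes TIE2, and at most 0.0119 CPM for Tie1. Of the 3 genes of this list tested, Angpt2, a second ligand of TIE2, fell in thymic γδ T cells from 16.4 ± 0.39 to 9.33 ± 0.27 CPM (log2 -0.69, edgeR adjusted p = 0.0146) and was not called in the other compartments. Angpt4 rose in the spleen from 0.642 ± 0.10 to 1.13 ± 0.43 CPM (log2 0.90, edgeR adjusted p = 0.0463). Among 13 other calcium channel subunits tested, 5 rose and 3 fell in the spleen and in thymic γδ T cells alike, and 2 rose and none fell in DN1-DN3 cells. The pore subunit gene Cacna1a rose from 9.22 ± 0.83 to 22.2 ± 1.2 CPM in thymic γδ T cells (log2 1.39, edgeR adjusted p = 6.86e-05). Of 13 partners of the thyroid hormone receptor tested, 3 rose and 4 fell in the spleen, 4 rose and 3 fell in thymic γδ T cells, and 1 rose and 4 fell in DN1-DN3 cells. The second receptor gene Thra fell with Thrb in DN1-DN3 cells, from 36.6 ± 2.9 to 24.2 ± 1.9 CPM (log2 -0.59, edgeR adjusted p = 0.00114), but rose in the spleen from 19.9 ± 0.86 to 30.8 ± 2.3 CPM (log2 0.72, edgeR adjusted p = 7.52e-05). Hmga1, the relative of Hmga2, fell in thymic γδ T cells (log2 -0.97, edgeR adjusted p = 0.000297) and in DN1-DN3 cells (log2 -0.50, edgeR adjusted p = 0.0251). Of 8 calmodulin genes, kinases and neuronal buffers tested beside Nrgn, 4 rose and 1 fell in the spleen, 2 rose and 5 fell in thymic γδ T cells and 3 rose and none fell in DN1-DN3 cells. The median log2 difference over all genes tested was 0.00 in the spleen, 0.00 in thymic γδ T cells and -0.02 in DN1-DN3 cells.

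The genes whose levels ran most like a member were found by Pearson's r of log2(CPM + 1) over the 12 libraries, among 8014 genes. These values are descriptions over libraries that differ in compartment and genotype. Angpt1 ran closest to Tns1 (r = 0.996), Dclk2 (0.991) and Supt3 (0.991). Tshz2 ran closest to Bace1 (0.986), Tbp (0.986) and Slf1 (0.984), and Cacnb2 to Stk11 (0.978), Eftud2 (0.977) and Tm7sf3 (0.977). Nrgn ran closest to Lztfl1 (0.992), Narf (0.981) and Ube2r2 (0.975), and Hmga2 to Zfp821 (0.978), Narf (0.964) and Siae (0.956), so that Narf stood on both lists. Mpp4 ran closest to Ctnnbip1 (0.980) and AI504432 (0.961), Mctp1 to Il21r (0.977), Ptpn12 (0.971) and Cuedc1 (0.968), and Thrb to Sufu (0.942), Crtc1 (0.917) and Zdhhc13 (0.884), the lowest values of the 8. Among the 8 genes, r was highest for Tshz2 with Angpt1 (0.95), for Hmga2 with Nrgn (0.93) and for Cacnb2 with Tshz2 (0.93), and lowest for Cacnb2 with Hmga2 (-0.09).

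The edge of the choice is given as a description. Among the 1535 genes that were lower in thymic γδ T cells with a mean of at least 20 CPM over the 4 libraries, the 5 genes chosen there were ranked 1 to 5, from -3.93 (Angpt1) to -3.09 (Nrgn), and the next were Lef1os1 at -3.04 and P2rx7 at -3.02. Among 633 such genes in DN1-DN3 cells, the 3 genes chosen there ran from -3.31 (Cacnb2) to -2.24 (Tshz2), and Cdkn1a at -2.10 followed Tshz2. Angpt1, not chosen in that sort, was ranked 7 there.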

How the data were processed

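Cells were counted from 12 demultiplexed 10x Genomics 3′ libraries. The deposited matrices hold raw UMI counts for each gene and cell, without normalization, made by the authors with Cell Ranger 8.0.1 and, per the submitters' processing notes, genome build GRCm39. The setting for intronic reads is not given in the sources used here. The authors split each pool by hashtag before deposit, and a library was assigned its genotype by the hashtag that the labels name for it. The genes and lists were chosen with earlier results of these data known.

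The limits of the study on cells were kept, namely a minimum of 500 UMIs and of 200 genes and a ceiling of 20% mitochondrial UMIs, which left 96911 of 97404 cells. Ribosomal, Gm and mitochondrial genes (9548 by name) were left out of tests but not of CPM, which divides by all UMIs of a library. Doublets were not called again, since hashtag demultiplexing had been done before deposit. Counts were summed over the cells of a library and compared with edgeR 4.0.16 (R 4.3.3) by the robust quasi-likelihood F test with TMM and filterByExpr, two-sided, with Benjamini-Hochberg adjustment over all genes tested and a threshold of 0.05. Whole compartments were contrasts in 1 fit of 12 libraries, and cells selected by a marker were fitted from their 4 libraries. edgeR gives no SE for this test, so the SE shown is the absolute log2 difference divided by the square root of the F statistic. The fit took the libraries as independent, although the γδ and DN1-DN3 thymocytes came from the same mice. A test in one thymic sort of a gene chosen in the other is therefore not made on separate mice. The scripts were tested on simulated data. Intervals are not given for shares, and thinning to 3000 UMIs left out shallower cells (351 to 1791 in a library). DESeq2 1.42.0 and other settings served as alternatives.

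The WT and KO libraries of a pool shared a droplet run, so the pool number pairs them. Their deviations from the group means correlated with r = 0.292 in the spleen, 0.172 in DN1-DN3 cells and 0.0643 in thymic γδ T cells over 14911 genes.

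The genes named are the 8 members, Gfi1, for each member the 3 genes with the highest r, up to 4 called genes of at least 5 CPM in each list of relatives, and those ranked next to the members. A few genes that this rule names are not reported here. Mouse promoter windows came from RefSeq on GRCm38.p6, which is not the build of the counts, and served only for sequence.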

Additional observations from a re-analysis of the deposited data

Results flagged for a closer look

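For 5 genes the difference between libraries labelled KO and WT was not of the same size in the spleen and in a thymic compartment, by a test of that difference itself (edgeR quasi-likelihood, 2 libraries in each of the groups, adjusted over 14911 genes). Over all 14911 genes, 5902 were called in either direction for spleen minus DN1-DN3 and 4405 for spleen minus thymic γδ T cells. Those called more negative in the spleen made up 20.9% and 15.9% of all genes tested. Spleen minus DN1-DN3, the log2 difference was -4.20 for Mctp1 (edgeR adjusted p = 2.51e-05), -3.45 for Angpt1 (edgeR adjusted p = 0.000669), -2.95 for Hmga2 (edgeR adjusted p = 0.00297) and -2.82 for Nrgn (edgeR adjusted p = 0.00011). Over the alternatives these adjusted p-values reached at most 0.0224, that of Hmga2. Neither Hmga2 nor Nrgn was called in DN1-DN3 cells, although each was under 1 of 12 alternatives (Hmga2 higher in KO without KO replicate 2, edgeR adjusted p = 0.0131, and Nrgn lower without the 5% deepest cells, edgeR adjusted p = 0.0437). Hmga2 was at or below 0.943 CPM there. Spleen minus thymic γδ T cells, the difference was -1.80 for Tshz2 (edgeR adjusted p = 0.00394, at most 0.0199 over the alternatives). The share of cells with a Trgv6 UMI also differed between the compartments, from 63.2% and 64.5% of KO cells in the spleen to 46.3% and 51.5% in thymic γδ T cells, and its part in these differences was not tested. The thymic libraries expressed Xist at 739 to 1600 CPM and the splenic ones at 0.374 CPM or less, which cannot be told apart from the compartment.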

How the results depend on the processing

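The 293 tested values of the 8 genes over whole libraries and interactions kept their direction and their side of the threshold in 283 cases, with 4 calls lost and 6 gained, and those over DN1-DN3 cells with at least 2 Ptcra UMIs and thymic γδ T cells with at least 2 Cd24a UMIs did so in 56 of 69, with 10 lost and 3 gained. No alternative was run for the cells selected by Kit, Il2rb, Mki67 or Trgv6. No called value changed direction. The count of genes called in DN1-DN3 cells was 3424, and 2074 when only the 4 DN1-DN3 libraries were fitted. Leaving out 1 library gave 1675 to 5038 genes (1956 without KO replicate 1, 1675 without WT replicate 1 and 1910 without WT replicate 2). The 2 genes called lower in thymic γδ T cells with at least 2 Cd24a UMIs became 1 with DESeq2, 0 with at least 4 Cd24a UMIs and 0 to 3 when 1 library was left out. At 8 or more Cd24a UMIs only Angpt1 and Nrgn could be fitted, from 3 and 2 KO cells, and the log2 difference of Angpt1 was 1.67. The cause of these shifts was not tested beyond the lower number of libraries or cells. With the pool as a replicate block, 4278 genes were called in DN1-DN3 cells, 8014 in thymic γδ T cells and 8640 in the spleen, and the paired fit changed no call of the 8 genes but those of Thrb and Cacnb2 given above. Thinning to 2000 UMIs or not at all left the count of 23 pairs of gene and compartment, which includes pairs that chose the genes. The RLE and no-filter alternatives in selected cells were added after the data had been seen. Depth limits Hmga2 in DN1-DN3 cells and Cacnb2, Mpp4 and Hmga2 in the spleen, which rest on 4 to 72 UMIs in a library. KO counts were also small for splenic Tshz2 (12 and 28 UMIs), Angpt1 (28 and 23 UMIs) and Mctp1 (35 and 60 UMIs). Those of Cacnb2 in thymic γδ T cells were 22 and 14 UMIs.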
